A study of Mus musculus with 19 samples.

Results

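Autosomal gene expression was compared between 2 wild-type lines of mouse embryonic stem cells after both had been turned into epiblast-like cells (EpiLC). The 3 LF2 libraries, labelled XX, were set against the 3 E14 libraries, labelled XY. These are 6 of the 19 libraries of the series. Genes of chromosomes 1 to 19 were kept when at least 3 of the 6 libraries had 1 TPM or more, a unit that corrects reads for transcript length and library total. This left 12755 of the 50402 autosomal genes in the annotation. A gene could enter through 1 line alone. The filter used TPM as deposited, so such a gene differed there but not always after the scaling described below.

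EpiLC are a culture model of the formative epiblast, the state between naive pluripotency and the commitment to germ layers. On leaving the naive state, cells shut down factors such as Esrrb, Klf4 and Tfcp2l1, and switch on Fgf5, Otx2 and the de novo DNA methyltransferases. Nodal and Activin signalling and FGF signalling through ERK drive this step, and Wnt, Nodal and BMP signals later pattern the primitive streak.

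Stem cells of both lines had been kept in serum-free medium with LIF and inhibitors of the kinases GSK3 and MEK1/2. EpiLC were then grown for 5 days with FGF5 and Activin A and no LIF. All 6 libraries carried wild-type Tet3. The Tet3-/- EpiLC shown for orientation came from LF2 and are mutants #1, #3 and #4. RNA was sequenced as stranded total RNA after depletion of ribosomal RNA. Each line is 1 karyotype, so line and sex chromosomes cannot be told apart. The labels do not say that replicates were separate cultures, so p-values may measure only the spread between these libraries. Sequencing depth is unknown, because TPM does not keep it.

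The labels were checked first. Xist had 24.9 to 32.7 TPM in LF2 and 0.638 to 0.812 TPM in E14, and the Y-linked Eif2s3y had 0.021 to 0.0845 TPM in LF2 and 44.5 to 65.5 TPM in E14. Pou5f1, the defining factor of pluripotent cells, was abundant in all 6 libraries. The lines differed in RNA composition. Rn7s1, a 7SL RNA of the signal recognition particle, held 38.9% to 39.5% of TPM in LF2 and 23.5% to 27.4% in E14. Nuclear protein-coding genes held 28.9% to 30.9% in LF2 and 44.6% to 46.7% in E14. The median autosomal gene was therefore 0.65 log2 lower in LF2 on TPM as deposited. Levels below are scaled TPM, in which each library is divided by its median ratio to the mean library, and this brings the median difference to 0.00. Differences are LF2 minus E14 on log2(scaled TPM + 1), which understates the change of weakly expressed genes, and are relative to the typical autosomal gene.

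Of the 12755 autosomal genes, 7831 (61.4%) were called by limma at a Benjamini-Hochberg adjusted p under 0.05. LF2 was higher for 4010 (31.4%) and lower for 3821 (30.0%). Every count of called genes in a list below is to be read beside these shares. Most differences were small, with a median absolute log2 difference of 0.53 among called genes. The large ones were mostly upward. LF2 was higher by at least 2 log2 for 187 genes and lower by that much for 36, and by at least 3 log2 the counts were 42 and 5. In 4355 genes (34.1%) every LF2 library lay above every E14 library, and in 4257 (33.4%) every one lay below. The number of calls depended on the fit, with 2438 higher and 2271 lower when all 19 libraries set the spread. On TPM as deposited only 1034 genes were higher (10.2% of calls, against 51.2% of calls in the scaled fit) and 9083 were lower.

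The coding genes named as furthest above E14 had varied roles. S100a6 (chromosome 3, 90612882 to 90624181, GRCm38), a calcium-binding protein, had 395, 360 and 381 scaled TPM in the LF2 libraries and 8.22, 6.24 and 5.69 in E14. The log2 difference was 5.63 (SE 0.12, limma adjusted p 4.99e-07). Lack of overlap and a large difference were both conditions for naming a gene here. The values therefore describe the chosen genes and are not a further test. Cryab, a small heat-shock protein, had 82.2, 82 and 84.1 scaled TPM in LF2 and 3.19, 2.93 and 2.66 in E14 (log2 difference 4.42). Triml2 (chromosome 8, 43180541 to 43193881), of the tripartite motif family, had 29.4, 32.4 and 31.4 in LF2 and 0.808, 0.832 and 0.885 in E14 (4.12). Tgm1, a transglutaminase of the epidermal barrier, had 27.5, 27.8 and 28.9 in LF2 and 0.481, 0.957 and 0.388 in E14 (4.19). The spread within a line was small beside these gaps. 2210011C24Rik, a coding gene with no assigned role here, had 33, 33.2 and 30.5 scaled TPM in LF2 and 1.43, 0.956 and 0.819 in E14 (4.02). Dnmt3l, Acta1, Peg10 and Krt19 belong to the same set and are described with their groups below.

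The 10 coding genes furthest below E14 included FGF ligands, transcription factors, and secreted or membrane proteins. Fgf8 (chromosome 19, 45736798 to 45742915), an FGF ligand of the primitive streak, had 0.217, 0.315 and 0.373 scaled TPM in LF2 and 15.9, 15 and 14.2 in E14. The log2 difference was -3.62 (SE 0.08, limma adjusted p 4.99e-07). Fgf5 (chromosome 5, 98254184 to 98277030), the ligand that marks formative epiblast, had 3.15, 3.01 and 3.36 in LF2 and 44.8, 41.9 and 42.3 in E14 (-3.40). T, the brachyury factor of the primitive streak, had 1.29, 0.63 and 1.18 in LF2 and 15.3, 18.3 and 19.2 in E14 (-3.20). All LF2 values were below all E14 values for each of the 3, as the naming rule required. Zic2, a zinc-finger factor of the epiblast, had 5.5, 4.84 and 5.56 in LF2 and 52.8, 52.8 and 54.9 in E14 (-3.11). Sall2, a zinc-finger factor, had 2.85, 2.73 and 2.93 in LF2 and 22, 23.3 and 24.2 in E14 (-2.66). Lef1, a DNA-binding effector of Wnt signalling, had 0.283, 0.392 and 0.365 in LF2 and 6.15, 7.35 and 8.26 in E14 (-2.61). Car14, a membrane carbonic anhydrase, averaged 0.763 ± 0.221 in LF2 and 11.9 ± 1.25 in E14 (SD, n = 3 each, log2 difference -2.87). Enpp2, the enzyme autotaxin, averaged 1.93 ± 0.252 and 18.8 ± 0.964 (-2.76), the growth factor gene Ptn 0.537 ± 0.07 and 9.34 ± 0.579 (-2.75), and the adhesion gene Tenm3 1.56 ± 0.144 and 15.9 ± 1.4 (-2.72).

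**Figure D1:**
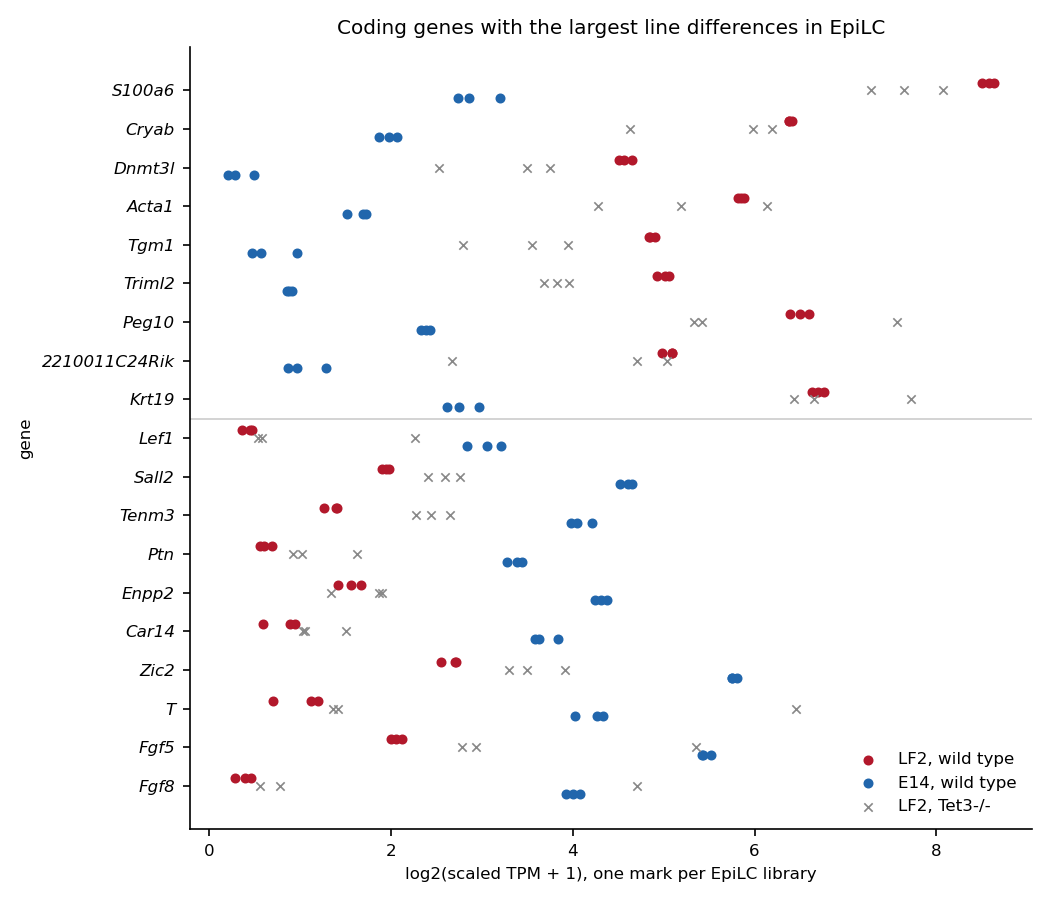
Level of the 19 coding genes named for the size of their line difference, as log2(scaled TPM + 1) on the x axis, with 1 mark for each EpiLC library (red LF2, blue E14, grey crosses Tet3-/- cells of LF2). Lack of overlap between red and blue marks was a condition for naming these genes. Mutant #3 lies far from the other mutants for T, Fgf5 and Fgf8.

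The Tet3-/- libraries share the LF2 line and are given side by side, since their difference from E14 rests on the same E14 libraries. Triml2 had 11.8, 13.2 and 14.6 scaled TPM in mutants #1, #3 and #4, and Sall2 had 5.75, 4.31 and 5.05. For both genes the mutants lay between the wild-type lines. Mutant #3 stood apart from the other mutants for some genes, though not for Sall2 or, with 20.4 against 26.2 and 23.4, for Otx2. T had 86.4 in #3 and 1.67 and 1.57 in #1 and #4, Fgf8 had 25.1 against 0.716 and 0.475, and Fgf5 had 40 against 5.85 and 6.67. Means over the mutants are therefore not given for those genes.

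Naive pluripotency genes were higher in LF2 in 13 of 14 tested genes of a list of 15, with a median log2 difference of 1.56 beside 0.00 for all autosomal genes tested. The same 13 to 1 split was seen under each of the 4 scalings, which all use the same filtered genes. Klf4, Tbx3, Esrrb, Nr5a2, Tcl1 and Dppa3 passed the filter through LF2 alone, the line where they were higher. Esrrb, a nuclear receptor of the naive network, had 15.9, 16.7 and 16.2 scaled TPM in LF2 and 0.713, 0.573 and 0.381 in E14 (log2 difference 3.48, SE 0.09, limma adjusted p 8.06e-07). Klf5, a Kruppel-like factor, had 29.6, 30.7 and 28.7 in LF2 and 3.18, 2.73 and 2.93 in E14 (2.96). Tcl1, a co-activator of the kinase AKT, had 6.4, 6.85 and 6.98 in LF2 and at most 0.0591 in E14 (2.90). The grainyhead-family factor Tfcp2l1 had 12.5, 13.7 and 12.8 in LF2 and 1.11, 0.867 and 0.902 in E14 (2.84). For all 4 genes the lines were far apart. Nanog, a homeodomain factor used in both states, was the 1 gene called lower, with 54.3, 50 and 50.1 in LF2 and 66.1, 56.1 and 57.6 in E14 (-0.21, limma adjusted p 0.0452). In bulk RNA a smaller share of cells expressing a gene and less of its RNA per cell cannot be told apart, here and below.

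Of 10 general pluripotency genes, 3 were higher and 5 lower, with a median of -0.24, beside 31.4% and 30.0% of all autosomal genes tested. Sox2, the partner of Pou5f1 on DNA, had 20.8, 19.6 and 20.9 scaled TPM in LF2 and 2.89, 2.07 and 2.4 in E14 (log2 difference 2.64, limma adjusted p 1.98e-06). Pou5f1 itself, with 294, 264 and 271 in LF2 and 349, 281 and 281 in E14, was not called (-0.13, limma adjusted p 0.315). The 2 factors thus stood at different ratios in the 2 lines, with Sox2 apart and Pou5f1 overlapping. Sall4, a zinc-finger factor, had 14, 14.3 and 14.9 in LF2 and 46.6, 48.9 and 47 in E14 (-1.65), and the RNA-binding Lin28a had 69.2, 63.7 and 63.9 against 137, 122 and 124 (-0.95). The Nodal co-receptor Tdgf1 (-0.65), the RNA-binding L1td1 (-0.36) and Trim71 (-0.35) were also called lower. The chromatin-associated Utf1 (0.96) and the adhesion molecule Epcam (0.46) were called higher, and the zinc-finger gene Zfp281 was not called (-0.10).

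Formative genes went the other way, with 15 of 18 tested genes lower, 2 higher and 1 not called, and a median log2 difference of -1.12. Lef1, Fgf15 and Foxd3 passed the filter through E14 alone, and Tcf15 through LF2 alone, in each case the line where the gene was higher. Fgf5, Zic2, Sall2 and Lef1 are given above. Among the other genes called lower, Otx2, a homeodomain factor of the formative epiblast, had 14.8, 14.2 and 13.9 scaled TPM in LF2 and 46.1, 48 and 48.8 in E14 (log2 difference -1.67). The POU factor Pou3f1 had 4.26, 3.33 and 4.28 against 8.56, 7.71 and 8.1 (-0.89). Both lines expressed these genes, at lower levels in LF2. The exceptions were Tcf15, a helix-loop-helix factor, with 5.46, 5.59 and 5.25 in LF2 and 0.542, 0.437 and 0.605 in E14 (2.08), and Grhl2, an epithelial transcription factor (0.49). Tcf7l1, a repressor of Wnt targets, overlapped between the lines and was not called (0.14, limma adjusted p 0.209).

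Only 6 of 14 primitive streak and mesendoderm genes passed the filter, 4 lower and 2 higher in LF2. Foxa2, an endoderm factor, had 0.0397, 0.0816 and 0.0806 scaled TPM in LF2 and 3.21, 2.75 and 2.59 in E14 (log2 difference -1.85). Cer1, a secreted Nodal and BMP antagonist, was at or under 0.0364 in LF2 and at 3.18, 2.96 and 3.56 in E14 (-2.05). With T, these genes were at or under 1.29 scaled TPM in every LF2 library. T, Foxa2 and Cer1 passed the filter through E14 alone, the line where they were higher. Eomes, a T-box factor, differed little (-0.26), and the Wnt ligand Wnt3 (0.33) and the homeobox gene Hhex (0.48) were called higher. Of 12 neural genes 5 were tested, with Tubb3 (0.86) and Nes (0.26) higher, Sox11 (-0.56) and Ncam1 (-0.89) lower and Map2 not called (-0.31). Mutant #3 had 15.9 scaled TPM of Eomes and 4.83 of Foxa2, where mutants #1 and #4 had 3.03 and 4.2, and 0.0955 and 0.0477.

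**Figure D2:**
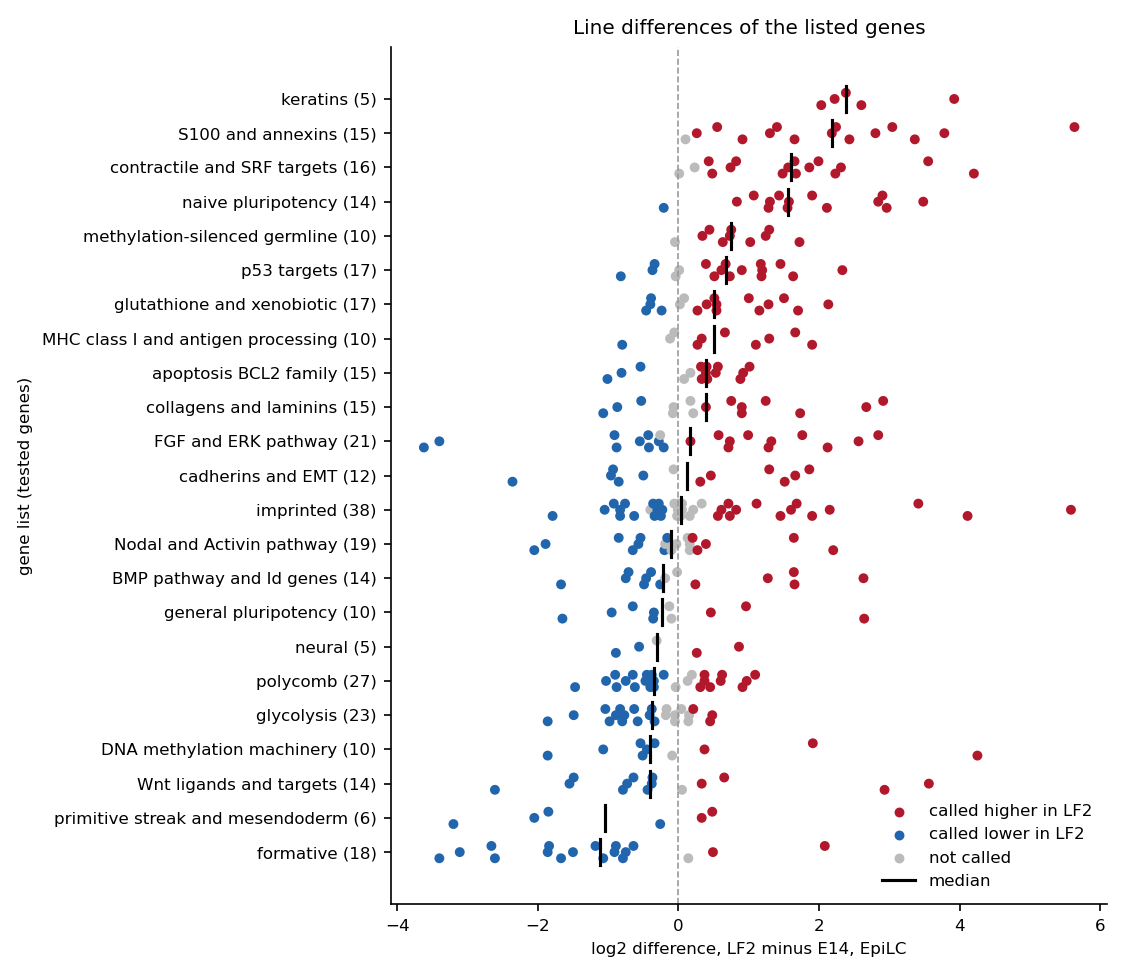
Log2 difference between LF2 and E14 in EpiLC on the x axis for every tested gene of the lists on the y axis (number tested in brackets), 1 dot per gene, coloured by call, with a black bar at the list median. Medians run from -1.12 for formative genes to 2.38 for keratins.

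Members of the FGF and ERK pathway moved both ways. Of 23 listed genes 21 were tested, 11 higher and 9 lower, with a median log2 difference of 0.17 (-0.56 as deposited). The ligands Fgf8 and Fgf5 were the lowest members, and Fgf15 was also lower (-0.91), while the naive ligand Fgf4 had 13.7, 13.8 and 13.6 scaled TPM in LF2 and 5.52, 5.07 and 4.62 in E14 (1.28). Of the receptors, Fgfr1 was lower, with 22.3, 23.3 and 24.7 against 41.7, 49.5 and 41 (-0.88), while Fgfr2 (0.73) and Fgfr3 (0.57) were higher. Genes induced by ERK went both ways. Ier3, an immediate-early gene, had 27.5, 27.3 and 28.6 in LF2 and 3.26, 3.27 and 2.55 in E14 (2.84), and Fos, an AP-1 subunit, had 7.38, 7.44 and 8.36 against 0.549, 0.51 and 0.369 (2.56). The ETS factor Etv4 (2.12) and the ERK phosphatase Dusp5 (1.76) followed. The phosphatase Dusp6 (-0.43), the feedback inhibitors Spry2 (-0.55), Spred1 (-0.42) and Spred2 (-0.28), and Myc (-0.21) were lower. Fos lies inside a raised stretch of chromosome 12 described below. Egr1, another immediate-early gene, was not called (-0.26, limma adjusted p 0.0513).

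Nodal and Activin genes showed 5 higher and 8 lower among 19 tested of 22, with a median of -0.10, beside 31.4% and 30.0% of all autosomal genes tested. The ligand Nodal had 30.4, 30.8 and 30.7 scaled TPM in LF2 and 32.2, 31.4 and 30.2 in E14 and was not called (log2 difference -0.03, limma adjusted p 0.652). The secreted antagonists moved apart. Lefty2 had 15.8, 14.1 and 14.5 in LF2 and 2.3, 2.93 and 2.17 in E14 (2.20), whereas Fst, which binds Activin, had 2.62, 2.59 and 2.71 against 13.8, 12.3 and 11.5 (-1.89), and Cer1 was lower as above. Its paralogue Lefty1 was not called (0.16). The convertase Pcsk6, which cleaves pro-Nodal, was higher (1.64), and the SMAD cofactor Foxh1 was lower (-0.85). No other member that was called lay beyond 0.65 log2.

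BMP pathway and Id genes showed 5 higher and 7 lower among 14 tested of 17, with a median of -0.22. The shares of all autosomal genes tested were 31.4% and 30.0%. The ligand Bmp4 had 11.6, 11.3 and 10.1 scaled TPM in LF2 and 2.37, 2.3 and 4.09 in E14 (log2 difference 1.64), and Bmp8b, another ligand, was higher too (1.27). The antagonist Nog had 2.86, 2.46 and 3.24 in LF2 and 0.259, 0.242 and 0.172 in E14 (1.65). The Id genes, inhibitors of helix-loop-helix factors, did not move together. Id2 had 40.2, 36 and 38.2 in LF2 and 6.14, 5.11 and 4.74 in E14 (2.63), while Id3 had 0.552, 0.188 and 0.27 against 3.48, 3.26 and 2.95 (-1.67) and Id1 had 2.89, 2.45 and 2.88 against 5.23, 5.54 and 4.62 (-0.71). The lines did not overlap for any of the 3 Id genes. The ligand Bmp7 was lower (-0.75).

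Of 19 Wnt ligands and targets 14 were tested, 4 higher and 9 lower in LF2, with a median log2 difference of -0.41. Among ligands, Wnt6 had 15.9, 15.2 and 15.6 scaled TPM in LF2 and 0.553, 0.328 and 0.359 in E14 (3.56), and Wnt7b had 8.71, 8.58 and 8.65 against 0.203, 0.428 and 0.177 (2.93). Wnt8a, a streak ligand, was lower (-1.55). Target and feedback genes were mostly lower. Lef1 was lowest, the antagonist Dkk1 had at most 0.0523 in LF2 and 1.77, 2.12 and 1.87 in E14 (-1.49), and Axin2, a scaffold of the destruction complex, had 3.45, 3.78 and 3.65 against 6.35, 7.51 and 7.13 (-0.79). The ubiquitin ligase Rnf43 was an exception (0.65). Tcf7 overlapped between the lines and was not called (0.05). Wnt8a, Wnt11, Dkk1, Lef1 and Nkd1 passed the filter through E14 alone, and Wnt6 and Wnt7b through LF2 alone. Each was higher in the line that let it pass.

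The DNA methylation machinery differed in composition. Dnmt3l (chromosome 10, 78041947 to 78063622), the non-catalytic partner of the de novo enzymes, had 24.2, 22.6 and 21.7 scaled TPM in LF2 and 0.403, 0.22 and 0.154 in E14 (log2 difference 4.25, SE 0.09, limma adjusted p 4.99e-07). The catalytic de novo enzymes were lower, with 33.1, 32.9 and 34.3 of Dnmt3b in LF2 and 121, 126 and 124 in E14 (-1.86), and 9.39, 9.87 and 11.5 of Dnmt3a against 22.5, 22.8 and 22.6 (-1.07). Partner and enzymes thus lay on opposite sides. The maintenance enzyme Dnmt1 (-0.51), its partner Uhrf1 (-0.34), the related Uhrf2 (-0.54) and the glycosylase Tdg (-0.45) were called lower. The 5-methylcytosine oxidase Tet1 had 18.5, 23.5 and 20.7 in LF2 and 4.51, 4.72 and 5.21 in E14 (1.91), Tet2 was higher (0.37), and Tet3, the gene deleted elsewhere in the study, had 1.72, 2.35 and 2.3 against 1.99, 2.43 and 2.5 and was not called (-0.09, limma adjusted p 0.527). In all, 3 of 10 were higher and 6 lower, beside 31.4% and 30.0% of all autosomal genes tested.

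Germline genes that are normally silenced by promoter methylation were higher in 9 of 10 tested of 19 listed, with 0 lower and a median of 0.74 (4 higher, 2 lower and 0.17 as deposited). Levels were low for the genes with the largest differences. Hormad1, of the meiotic chromosome axis, had 2.91, 2.59 and 2.1 scaled TPM in LF2 and 0.0997, 0.062 and 0.0377 in E14 (log2 difference 1.72), and Mael, of the piRNA pathway, had 2.58, 2.28 and 2.45 against 0.409, 0.384 and 0.432 (1.29). Both lay near the filter in LF2 and under it in E14. Next came Tex14 (1.24), of germ cell bridges, and the PIWI protein gene Piwil2 (1.02). Like Hormad1 and Mael, both passed the filter through LF2 alone. Rec8 (0.75) and Stag3 (0.73), of the meiotic cohesin, Rpl10l (0.63), Sycp3 (0.44) and the helicase gene Ddx4 (0.34) were higher by less, and Tdrd1 was not called (-0.05). Some of these were well expressed in both lines. Sycp3 had 73, 58.1 and 64.2 scaled TPM in LF2 and 55.1, 43.7 and 45 in E14. Stag3 had 17.1, 20.8 and 17.9 against 8.8, 12.1 and 11.8, and Rec8 had 5.55, 6.66 and 6 against 2.98, 3.35 and 3.29. Methylation was not measured. The promoters of the highest 2 are printed because their CpG sites are what methylation acts on. They are the 250 bases before the start from RefSeq (GRCm38.p6), for Hormad1 chr3:95559427-95559676, plus strand, and for Mael chr1:166238745-166238994, minus strand, with each CG in capitals.
Hormad1: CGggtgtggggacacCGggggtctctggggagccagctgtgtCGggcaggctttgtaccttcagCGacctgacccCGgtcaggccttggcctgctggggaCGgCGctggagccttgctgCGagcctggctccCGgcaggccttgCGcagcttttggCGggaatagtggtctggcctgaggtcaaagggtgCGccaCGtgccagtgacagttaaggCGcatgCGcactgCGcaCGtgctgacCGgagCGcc
Mael: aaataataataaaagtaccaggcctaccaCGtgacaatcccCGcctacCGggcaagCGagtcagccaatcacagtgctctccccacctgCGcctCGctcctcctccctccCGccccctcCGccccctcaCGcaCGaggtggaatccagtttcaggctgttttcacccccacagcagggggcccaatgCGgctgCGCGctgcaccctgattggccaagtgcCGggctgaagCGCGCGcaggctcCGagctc
The windows hold 19 and 18 CG pairs, where the 9 list genes with a RefSeq window have a median of 17 and all 32851 windows of that table a median of 6 (quartiles 2 and 16).

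Imprinted genes are expressed from 1 parental copy. Of 50 listed genes 38 were tested, 14 higher and 13 lower, with a median of 0.04 (-0.59 as deposited). These shares are near the 31.4% and 30.0% of all autosomal genes tested. H19 (chromosome 7, 142575529 to 142578143), a maternally expressed non-coding RNA, had 58.3, 55.6 and 57.6 scaled TPM in LF2 and 0.374, 0.237 and 0.063 in E14 (log2 difference 5.58, SE 0.10, limma adjusted p 2.82e-07). Its neighbour Igf2, a growth factor expressed from the other parental copy, was not called (0.33, limma adjusted p 0.0955). Peg10 (chromosome 6, 4747306 to 4760517), derived from a retrotransposon, had 82.7, 95.8 and 89.2 in LF2 and 4.23, 4.04 and 4.37 in E14 (4.11). Sgce, which adjoins Peg10, had 28.1, 27.6 and 27.9 against 5.41, 5.54 and 5.56 (2.15). Both genes of this paternally expressed pair were high in every LF2 library. Nnat, a small membrane protein, had 24.1, 23.4 and 24 against 1.53, 1.2 and 1.26 (3.41). Lower genes were Grb10, an adaptor of growth factor receptors, with 19.3, 18.9 and 18.7 in LF2 and 67.3, 67.7 and 69.4 in E14 (-1.79), Zdbf2 (-1.05), the cell-cycle inhibitor Cdkn1c (-0.92) and Mirg (-0.83). Of the non-coding RNAs of the Meg3 domain, Rian was also lower (-0.36), and Meg3, at 168, 256 and 252 against 203, 358 and 342, was not called (-0.40, limma adjusted p 0.217).

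Contractile genes and other targets of serum response factor (SRF) were higher in 14 of 16 tested genes and lower in 0, with a median log2 difference of 1.60. Acta1, skeletal actin, had 56.5, 55.2 and 58.2 scaled TPM in LF2 and 2.31, 1.87 and 2.23 in E14 (4.20, SE 0.07, limma adjusted p 2.26e-07). Tagln, an actin-bundling protein of smooth muscle, had 126, 118 and 119 against 11, 9.2 and 8.25 (3.55), and Acta2, smooth muscle actin, had 5.21, 6.5 and 5.74 against 0.302, 0.512 and 0.303 (2.31). All E14 libraries held RNA of these genes, far below any LF2 library. The calponin Cnn2 had 73.2, 71.5 and 67.9 against 16.9, 13.3 and 13 (2.23). Srf itself had 9.61, 9.75 and 9.95 in LF2 and 10.1, 9.82 and 9.25 in E14 and was not called (0.01, limma adjusted p 0.927), nor was its target Tgfb1i1 (0.23). On TPM as deposited 10 of the list were higher and 2 lower. SRF binds a motif called the CArG box. It was found in the 250 bases before the start of 5 of the 13 list genes with a RefSeq window (38.5%) and in 482 of all 32851 windows (1.47%). The list was drawn up as SRF targets, so its share is set by that choice and says nothing about the line difference. It reads alike on both strands. The 5 windows are printed with the box in capitals, since the genes differ from 0.01 to 4.20 in log2 while each holds the motif. They are chr8:123894776-123895025, minus strand, for Acta1, chr10:79988350-79988599, plus strand, for Cnn2, chr2:156775214-156775463, plus strand, for Myl9, a myosin light chain, chr14:20929148-20929397, plus strand, for Vcl, the adhesion protein vinculin, and chr17:46556163-46556412, minus strand, for Srf (all GRCm38.p6).
Acta1: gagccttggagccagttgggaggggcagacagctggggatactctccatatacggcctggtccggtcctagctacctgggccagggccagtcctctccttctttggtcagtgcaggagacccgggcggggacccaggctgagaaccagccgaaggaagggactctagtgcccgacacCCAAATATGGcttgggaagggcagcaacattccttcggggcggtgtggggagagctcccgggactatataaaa
Cnn2: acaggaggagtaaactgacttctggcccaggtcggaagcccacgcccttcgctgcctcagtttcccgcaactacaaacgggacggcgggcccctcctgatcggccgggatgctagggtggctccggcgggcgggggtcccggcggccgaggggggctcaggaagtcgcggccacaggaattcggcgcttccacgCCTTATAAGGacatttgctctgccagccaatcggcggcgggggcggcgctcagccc
Myl9: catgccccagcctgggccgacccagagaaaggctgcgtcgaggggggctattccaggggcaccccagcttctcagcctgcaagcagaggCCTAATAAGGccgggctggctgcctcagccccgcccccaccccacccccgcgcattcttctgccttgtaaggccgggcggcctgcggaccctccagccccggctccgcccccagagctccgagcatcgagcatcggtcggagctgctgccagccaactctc
Vcl: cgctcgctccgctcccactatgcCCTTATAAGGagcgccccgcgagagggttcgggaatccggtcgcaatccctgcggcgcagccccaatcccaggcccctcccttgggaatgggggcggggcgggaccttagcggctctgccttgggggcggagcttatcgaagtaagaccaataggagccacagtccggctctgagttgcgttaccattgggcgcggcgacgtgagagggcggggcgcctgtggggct
Srf: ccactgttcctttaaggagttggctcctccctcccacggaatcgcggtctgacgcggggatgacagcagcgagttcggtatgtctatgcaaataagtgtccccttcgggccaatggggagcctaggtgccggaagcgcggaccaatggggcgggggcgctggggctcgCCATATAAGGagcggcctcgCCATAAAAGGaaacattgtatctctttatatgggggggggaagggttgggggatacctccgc
The box starts at position -73 from the start site in Acta1, -56 in Cnn2, -161 in Myl9 and -227 in Vcl. Srf holds 2. Beside them, Myl9 had 9.59, 9.52 and 8.69 scaled TPM in LF2 and 2.42, 2.25 and 2.14 in E14 (1.65), and Vcl had 39, 40.3 and 40.6 against 28.6, 29.6 and 29.9 (0.43).

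Keratins of simple epithelia were all higher, 5 of 5 tested of 7 listed, with a median of 2.38. Krt19 had 108, 98 and 103 scaled TPM in LF2 and 6.84, 5.74 and 5.12 in E14 (log2 difference 3.92). The partners Krt8 and Krt18, which form 1 filament, were both high. Krt8 had 197, 196 and 200 in LF2 and 35.6, 31.9 and 28.5 in E14 (2.60), and Krt18 had 323, 312 and 312 against 66.6, 57.1 and 56.5 (2.38). Krt42 (2.22) and Krt7 (2.03) were less abundant.

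S100 and annexin genes, which encode calcium-binding proteins of the cell cortex, were higher in 14 of 15 tested of 18, with 0 lower and a median of 2.18 (11 higher and 2 lower as deposited). Beside S100a6, Anxa3 had 98.8, 103 and 99.9 scaled TPM in LF2 and 6.72, 6.42 and 6.1 in E14 (log2 difference 3.78), Anxa1 had 19.9, 16.6 and 16.7 against 1.13, 0.62 and 0.741 (3.36), and Anxa2 had 186, 181 and 182 against 24.6, 19.4 and 20.5 (3.04). No E14 library reached the lowest LF2 library for any of the 4. Anxa4 was not called (0.10, limma adjusted p 0.214).

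Adhesion and matrix genes were mixed. Among 12 tested genes of the cadherin and EMT list, 6 were higher and 5 lower (median 0.12, and -0.62 as deposited). Of all autosomal genes tested, 31.4% were higher and 30.0% lower. E-cadherin, Cdh1, was slightly higher, with 115, 118 and 114 scaled TPM against 98, 90 and 91.5 (log2 difference 0.31), and N-cadherin, Cdh2, was lower (-0.93). The matrix protein Fn1 (1.86), the epithelial factors Ovol2 (1.66) and Esrp2 (1.51) and P-cadherin, Cdh3 (1.29), were the highest. Cdh1, Cdh3 and Esrp2 lie inside the raised stretch of chromosome 8 described below, whose median is 0.40, and its part in their values was not tested. The mesenchymal factor Zeb2 had 0.479, 0.274 and 0.627 in LF2 and 5.89, 6.91 and 6.63 in E14 (-2.36), and Twist1 (-0.96) and Zeb1 (-0.85) were lower as well. Among collagens and laminins 8 of 15 tested were higher and 3 lower (median 0.39, and -0.36 as deposited), led by Col5a2 with 11.1, 11.8 and 12.2 in LF2 and 0.718, 0.748 and 0.627 in E14 (2.91) and Lamb3 with 8.42, 8.97 and 10.1 against 0.631, 0.644 and 0.502 (2.67). The basement membrane collagen Col4a1 was lower (-1.07).

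Glycolytic genes were lower in 13 of 23 tested and higher in 3, with a median log2 difference of -0.38. Ldha, which makes lactate, had 98.7, 86.8 and 89.7 scaled TPM in LF2 and 381, 314 and 312 in E14 (-1.86), and the lactate exporter Slc16a3 had 26, 23.5 and 28.1 against 77, 73 and 73 (-1.49). The liver-type phosphofructokinase Pfkl (-1.04) and the glucose transporter Slc2a1 (-0.98) followed. Hexokinase 2, Hk2, was higher (0.48) and lies inside a raised stretch of chromosome 6 described below. The glucose transporter Slc2a3, at 349, 355 and 365 scaled TPM in LF2 and 371, 368 and 369 in E14, was not called (-0.05, limma adjusted p 0.482).

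Polycomb subunits showed 9 higher and 15 lower among 27 tested of 29, with a median of -0.35. All autosomal genes tested were higher in 31.4% and lower in 30.0%. The chromobox gene Cbx2 had 1.73, 2.08 and 2.05 scaled TPM in LF2 and 7.12, 7.26 and 7.19 in E14 (log2 difference -1.47), Phc1 was lower (-1.03), and Phf19, an accessory subunit of PRC2, was higher (1.09). The catalytic Ezh2 differed little (-0.35).

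Stress and immune lists were mostly higher. Targets of p53 were higher in 12 of 17 tested and lower in 3, with a median log2 difference of 0.67, led by the membrane protein Perp, with 101, 83.7 and 85.9 scaled TPM in LF2 and 20, 15.9 and 15.6 in E14 (2.33). Mdm2, the ligase that degrades p53, had 112, 114 and 113 against 48.6, 50.7 and 49.4 (1.18), while Trp53 transcript was lower (-0.34). In the BCL2 family 10 of 15 were higher and 3 lower, with both the survival genes Bcl2l1 (1.01) and Mcl1 (0.88) and the death gene Bbc3 (0.92) among the higher. On TPM as deposited the counts were 6 higher and 6 lower for p53 targets and 1 higher and 8 lower for the BCL2 family, and both medians turned negative (-0.06 and -0.22). Relative to the median of all autosomal genes under that scaling they were 0.59 and 0.42. Of 10 antigen presentation genes 7 were higher, led by B2m, with 240, 218 and 233 in LF2 and 66.6, 56.9 and 60.4 in E14 (1.90), while the class I heavy chain gene H2-K1 was not called (-0.12). Near-identical H2 genes can share reads, so their values are uncertain. Of 17 glutathione and xenobiotic genes 11 were higher and 4 lower, led by Gpx3 (2.13). The antigen presentation and glutathione medians were 0.50 and 0.51, and -0.14 and -0.20 as deposited.

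Small non-coding RNA classes were not alike. Of 145 tested snoRNA genes, whose RNAs guide ribosomal RNA modification, 77 were higher in LF2 and 3 lower, of 49 snRNA genes 27 were higher and 0 lower, and of 21 scaRNA genes 15 were higher and 0 lower. Of 69 miRNA genes 7 were higher and 7 lower, with a median of -0.22. Coding genes were 3615 higher and 3490 lower of 11103. The medians of the snoRNA, snRNA and scaRNA classes were 0.94, 1.16 and 1.00 in log2. They were 0.27, 0.43 and 0.24 on TPM as deposited. Rn7s1, far more abundant, differed by 1.42 without overlap but was not called (SE 1.41, limma adjusted p 0.411). That SE is drawn towards a trend fitted over genes by abundance, so it is not the spread of Rn7s1 between libraries alone. Its share of TPM was 38.9% to 39.5% in LF2 and 23.5% to 27.4% in E14. The part of RNA composition in the class differences was not tested. Copies of a small RNA gene are near identical, so single loci are uncertain. Of other non-coding genes, the 3 highest were H19, Terc and 1700108F19Rik. Terc, the RNA of telomerase, had 211, 158 and 55.6 scaled TPM in LF2 and 4.09, 40 and 3.98 in E14 (log2 difference 3.61, SE 0.89, limma adjusted p 0.011), a wide spread within both lines, and 1700108F19Rik had 11.3, 10.8 and 14.4 against at most 0.264 (3.57). The 3 lowest were the pseudogene Tpt1-ps3, listed at 0 in LF2 1 and 2 and at 18.1 in LF2 3, against 56.9, 40.3 and 27.1, the snoRNA Gm23136, listed at 0 in all LF2 libraries and at 4.42, 7.05 and 6.52 in E14, and Trav5-2, with at most 0.845 in LF2 and 6.07, 11.7 and 9.93 in E14. The call on Tpt1-ps3 was lost without LF2 1 (log2 difference -3.27), LF2 2 (-3.25) or E14 1 (-3.65).

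Markers of other cell types were summed per library. The 11 trophoblast markers summed to 13.8 to 14.7 scaled TPM in LF2 and 2.77 to 3.66 in E14, and 4 of the 4 tested were higher (Krt7, Ascl2, Tfap2c and Gata3), but the defining Cdx2 and Elf5 stayed under 0.16 TPM in all 6 libraries and the hormone gene Prl3d1 was at 0. Krt7 is also among the keratins and Ascl2 among the imprinted genes. The 12 primitive endoderm markers summed to 165 to 169 in LF2 and 57.6 to 63.4 in E14, nearly all from Sparc (162, 159 and 163 against 56.2, 51.3 and 53.3), which other cells also express. Of 3 tested, 2 were higher and 1, Foxa2, was lower in LF2 (-1.85). Gata6 was at most 0.361 TPM and Sox7 at most 0.146 TPM. Among untested markers, Gata4 reached 0.42 TPM in LF2 and 1.34 in E14, and Sox17 reached 0.132 and 1.14. Sox7 and Afp reached more in LF2. The 12 fibroblast markers summed to 7.81 to 9.16 in LF2 and 11.9 to 14.8 in E14, with Col1a1 and Col3a1 under 0.5 TPM. The 11 blood and endothelium markers summed to 17.5 to 21.3 against 1.19 to 2.06, and Laptm5 alone (15, 18.5 and 17.4 against 0.555, 0.257 and 0.331) made up most of the LF2 sum while Ptprc was at most 0.0633 TPM. All these sums but that of the fibroblast markers were higher in LF2, as were most genes of the keratin, S100, annexin, contractile and matrix lists. The fibroblast sum was lower. The part of the marked cell types in those lists was not tested. None of the 19 genes of the two-cell-like list entered the test.

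Position was examined because the rule uses it only to separate autosomes. The median log2 difference per chromosome lay between -0.06 and 0.05 except for chromosome 8, at 0.21 with 337 genes higher and 147 lower of 697. In the LF2 libraries it was 0.20, 0.22 and 0.22. Of 210 windows of 10 Mb with at least 20 tested genes, 8 had a median of at least 0.3 and 5 a median of -0.3 or lower, and the 5th and 95th percentiles of the medians were -0.24 and 0.21. The 8 high windows were 4 on chromosome 8, 1 each on chromosomes 6 and 12, and 2 that did not lead to a stretch below. One of these, on chromosome 4 (50000001 to 60000000), had a median of 0.44 in EpiLC and 0.01 in mESC, with 18 of 35 genes higher and 10 lower. The other, on chromosome 7 (140000001 to 150000000), which holds H19, had 0.41 and 0.12, with 42 of 75 higher and 11 lower. The 5 low windows were on chromosomes 2 (-0.44), 4 (-0.30), 9 (-0.62), 12 (-0.38) and 17 (-0.30). Stretches were then outlined by eye from their first to their last gene, so their edges and values are a description with no test.

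Distal chromosome 8, from Anapc10 to the last tested gene (79711820 to 129282844, GRCm38), was higher, with a median of 0.40. Of its 348 tested genes 238 were higher (68.4%) and 34 lower. The other 349 genes of the chromosome had a median of -0.02. The raised stretch was not even. Its window from 110000001 to 120000000 had a median of 0.19 in EpiLC (25 of 51 genes higher, 6 lower) and 0.49 in mESC. Acta1 and 2210011C24Rik lie in this stretch, with differences far above its median, while Triml2 and Tenm3 lie outside it. On chromosome 6, from Rpia to Dguok (70765720 to 83506969), 53 of 63 genes were higher, 1 was lower and the median was 0.91, beside -0.08 on the rest of the chromosome. The mitochondrial gene Immt (44.8 scaled TPM in LF2 and 27.2 in E14 on average, 0.70) and the actin-sequestering Tmsb10 (944 and 203, 2.21) are examples. Tet3 lies within this stretch and was not raised with it. On chromosome 12, from Dcaf4 to Snw1 (83520466 to 87472274), 48 of 57 genes were higher, 1 was lower and the median was 0.83, beside -0.08 on the rest. The cholesterol carrier Npc2 (121 and 44.2, 1.44) and the mitochondrial enzyme gene Dlst (75.8 and 43.7, 0.78) belong to it, as do Esrrb and Fos. Vrtn was the exception (-2.52).

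A stretch of chromosome 2, from Gm14444 to Zfp931 (175010241 to 178078476), was lower, with 35 of 42 genes lower, 0 higher and a median of -0.73. It holds a family of near-identical zinc-finger genes that can share reads, so single members such as Gm14325 (17.3 scaled TPM in LF2 and 24.6 in E14) are uncertain. The first window of chromosome 9 also had a low median (-0.62), with LF2 1 at -0.06 and LF2 2 and 3 at -0.66 and -0.73, and it holds a family of near-identical predicted genes. In stem cells, whose libraries the EpiLC values do not use, the 4 stretches had medians of 0.46 on chromosome 8, 0.83 on chromosome 6, 0.77 on chromosome 12 and -0.57 on chromosome 2, and every LF2 mESC library lay on the same side. The Tet3-/- EpiLC medians against the same E14 libraries were 0.42, 0.87, 0.84 and -0.83. Outside the 4 stretches 12245 genes remain, of which 30.0% were higher and 30.6% lower. On TPM as deposited the distal chromosome 8 median was -0.26, which is 0.39 above the median of all autosomal genes under that scaling.

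**Figure D3:**
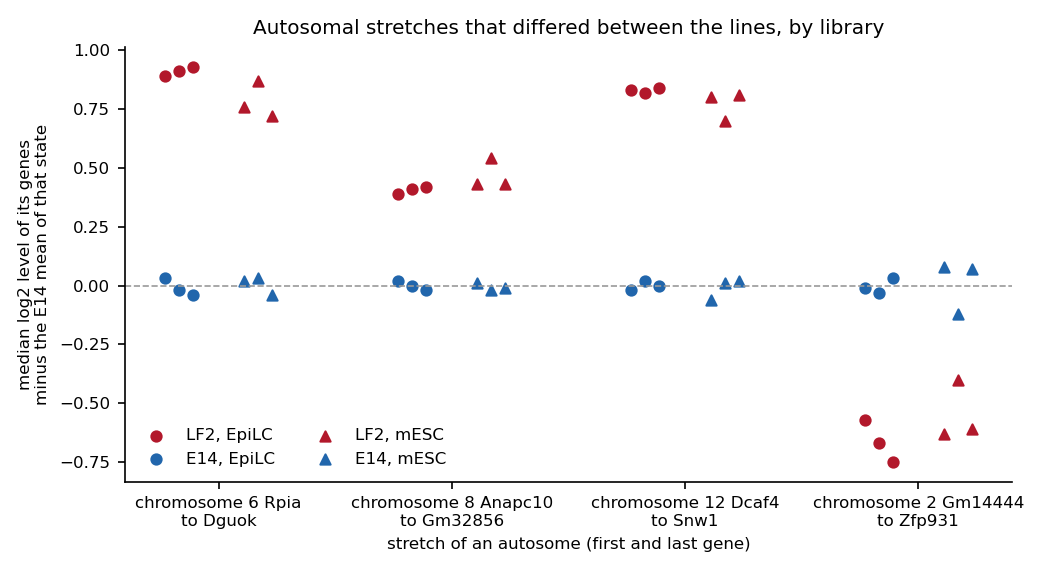
Median log2 level of the genes of each stretch (x axis) minus the E14 mean of the same culture state (y axis), 1 mark per library, circles for EpiLC and triangles for mESC, red for LF2 and blue for E14. Chromosome 6, 8 and 12 stretches sit above 0 in every LF2 library of both states, and the chromosome 2 stretch sits below 0.

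The line difference was then read in the 3 LF2 and 3 E14 mESC libraries, scaled and tested on their own. There 2027 of 11486 autosomal genes were called (17.6%), 1091 higher (9.50%) and 936 lower (8.15%). That count rested on single libraries. Without LF2 mESC 2 it was 2211 higher and 2090 lower, and without LF2 mESC 1 or 3 or E14 mESC 1 or 3 it was at most 472 higher and 418 lower. Of 6549 genes called in EpiLC and tested in mESC, 1055 (16.1%) were called in the same direction and 244 in the other, with 2042 and 605 without LF2 mESC 2, 970 and 192 without E14 mESC 2, 479 and 94 without LF2 mESC 3, 424 and 90 without E14 mESC 3, 408 and 89 without LF2 mESC 1, and 374 and 79 without E14 mESC 1. With the replicate block the counts were 342 and 80. Across 10711 genes the 2 sets of log2 differences had a Pearson r of 0.37 and a Spearman rho of 0.37. Genes are not replicates, so this describes the libraries.

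Whether a difference was particular to EpiLC was tested as the line difference in EpiLC minus that in mESC, called for 3294 of 12755 autosomal genes (25.8%). Sox2 was level between the lines in mESC, with 80.3, 76.6 and 77.4 scaled TPM in LF2 and 79.6, 87.7 and 74.6 in E14, and the difference between states was 2.59 (SE 0.14, limma adjusted p 6.24e-07). Esrrb differed in mESC by 0.68 and between states by 2.62, and Tfcp2l1 by 0.36 and 2.34. Of the naive genes tested, the state difference was not called for Klf4 (1.04 in mESC and 1.07 in EpiLC, limma adjusted p 0.56), Tbx3 (0.62 and 1.43, limma adjusted p 0.0797) or Dppa3 (1.35 and 2.11, limma adjusted p 0.722). The pseudocount of 1 shrinks a difference between weak values, so these sizes are not ratios. Klf4 had 50, 47.2 and 47.1 scaled TPM in LF2 mESC and 21.7, 24.9 and 22.2 in E14 mESC. In EpiLC it had 1.5, 1.73 and 1.66 against 0.264, 0.243 and 0.259. Otx2 changed sides, with 24.4, 15.1 and 23.4 in LF2 mESC and 1.67, 1.02 and 1.72 in E14 mESC, a state difference of -4.90 (SE 0.24, limma adjusted p 2.93e-07). Mest, an imprinted gene, also changed sides (-1.94 in mESC and 1.68 in EpiLC), as did Laptm5 (-1.04 and 3.70). Tet1 was closer in EpiLC than in mESC, where it had 24.2, 21.3 and 31.4 in LF2 and 0.419, 0.509 and 0.358 in E14 (4.20 in mESC, state difference -2.51). Grb10 (-1.60 in mESC), T (-2.73) and Lef1 (-2.01) were lower in LF2 in both states, with state differences of -0.18, -0.17 and -0.30 that were not called (limma adjusted p 0.303, 0.732 and 0.461). T and Lef1 were under 1 scaled TPM in every LF2 mESC library, so their ratios may differ between states more than these values do.

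**Figure D4:**
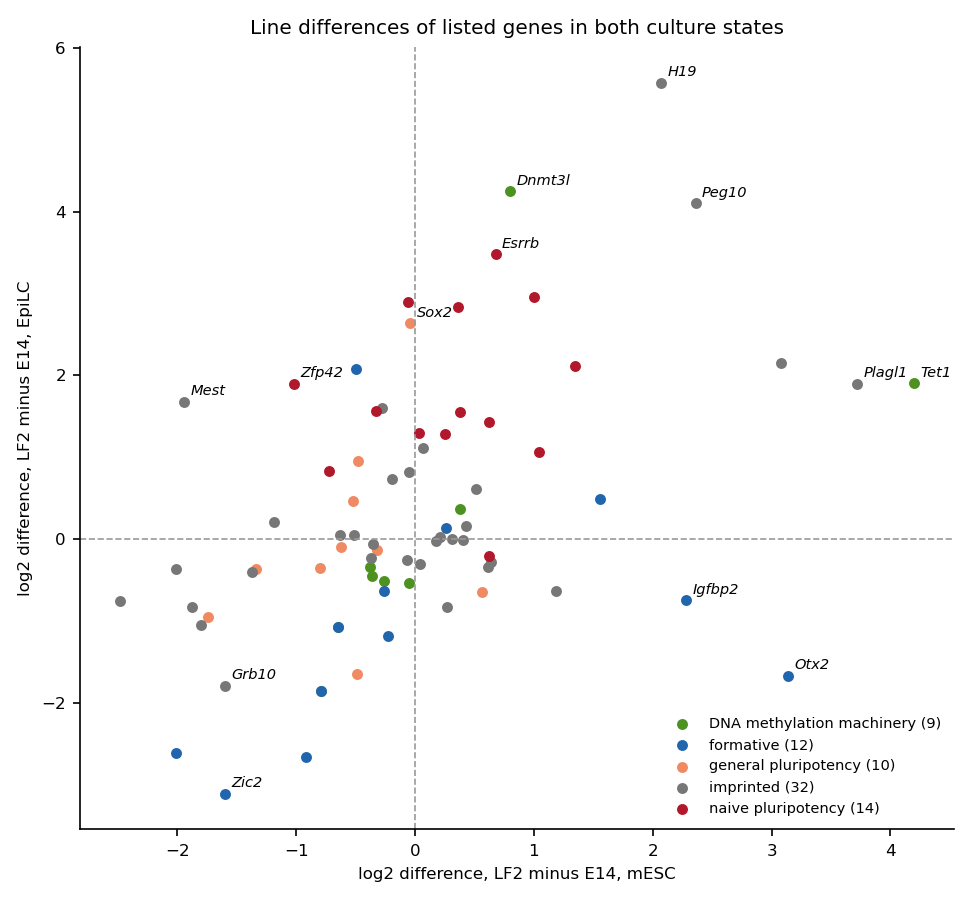
Log2 difference between LF2 and E14 in mESC (x axis) and in EpiLC (y axis) for the 75 genes of 5 lists tested in both states, 1 dot per gene coloured by list. Sox2 lies near 0 in mESC and at 2.64 in EpiLC, while Mest (-1.94 and 1.68) and Otx2 (3.14 and -1.67) have opposite signs in mESC and EpiLC.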

How the data were processed

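RNA-seq libraries of 6 EpiLC samples (3 LF2, 3 E14) were compared, with 6 mESC libraries of the same lines as a second measurement and 3 Tet3-/- EpiLC libraries side by side. The authors deposited TPM per transcript, and every column summed to 1000000. FastQC 0.11.7, Trimmomatic 0.35, Salmon 1.1.0 and build GRCm38 are named in the submitters' processing notes. The annotation they used is not given in the sources used here.

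The deposited TPM of 140948 transcripts was summed per gene with GENCODE M21 (GRCm38), and 1096 unmatched transcripts (at most 0.215% of TPM) were left out. Genes with at least 1 TPM in at least 3 of the 6 libraries were scaled by the median of ratios over autosomal genes and tested with limma 3.58.1 (R 4.3.3, eBayes with a trend) on log2(scaled TPM + 1), with a pseudocount of 1. Adjustment (Benjamini-Hochberg) covered the 13234 genes of all chromosomes, and a call is an adjusted p under 0.05. A single gene's exact permutation test of 3 against 3 could not go below 0.1. Where 2 gene IDs share a symbol, the list holds the more abundant one. On simulated data for LF2 minus E14 in EpiLC, with 200 of 13234 genes changed, 92% of changes of 1 log2 and 97% of changes of 2 log2 were called, with 15 false calls, and 1 call was made where nothing was changed. In the data 61.4% of autosomal genes were called, a far larger share than was changed there. The simulated rates may therefore not hold for this comparison.

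Named genes are the 10 highest and 10 lowest coding genes and the 3 highest and 3 lowest others, among called genes with a mean of at least 5 scaled TPM in the higher line and no overlap (1 gene meeting this rule is not reported here). From a list of up to 10 tested genes all may be named. From longer lists up to 4 called genes in each direction, with defining genes that were not called, may be named. Genes named beyond this (in stretches, or as further list members) were chosen after their values were seen. The members and lists were chosen with earlier results of these data known. Promoter windows come from RefSeq (GRCm38.p6), matched by symbol. Where a symbol had several, the window nearest the annotated 5' end was taken. Alternatives were another pseudocount, other filters, 3 other scalings, a fit of all 19 libraries, no trend, a replicate block, adjustment over autosomes, a minimum change of 1 log2, and each library left out. Figures were drawn with matplotlib.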

Additional observations from a re-analysis of the deposited data

Results flagged for a closer look

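For 22 of the 25 genes named for their size the line difference in EpiLC differed from the line difference in mESC by limma's interaction contrast (adjusted p under 0.05), and that is why they stand here. Over all autosomal genes tested it was called for 3294 of 12755 (25.8%). The 25 genes were chosen for the size of their EpiLC difference, and the contrast uses the same EpiLC libraries. Their high share is therefore set in part by that choice. The difference of the differences is given in log2. Among genes higher in LF2 EpiLC it was 4.05 for Acta1, 4.03 for Triml2, 3.87 for S100a6, 3.63 for Krt19, 3.47 for Tgm1, 3.22 for Dnmt3l, 3.10 for H19, 2.66 for 2210011C24Rik, 2.62 for 1700108F19Rik, 2.01 for Cryab and 1.56 for Peg10. Triml2 had 38.2, 40.9 and 39 scaled TPM in LF2 mESC and 41.5, 38.2 and 44.1 in E14 mESC, so the lines overlapped there. Dnmt3l had 17.2, 2.88 and 16.7 in LF2 mESC, and its interval is wide (SE 0.67).

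Among genes lower in LF2 EpiLC it was -3.42 for Fgf8, -3.21 for Fgf5, -2.81 for Car14, -2.62 for Enpp2, -2.36 for Ptn, -1.61 for Sall2, -1.41 for Zic2 and -0.91 for Tenm3. Fgf8, Fgf5, Car14, Enpp2 and Ptn were under 1 scaled TPM in every mESC library. The values for Tpt1-ps3 (-7.22), Gm23136 (-3.36) and Trav5-2 (-1.47) rest on loci listed at 0 in several libraries. The Zic2 value missed the threshold without any 1 of the 6 EpiLC libraries (-1.44 to -1.36) and without LF2 mESC 1 (-1.17) or 3 (-1.30). The Trav5-2 value missed it without LF2 EpiLC 1 (-1.23), E14 EpiLC 2 (-1.28) or 3 (-1.38), or E14 mESC 1 (-1.27).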

How the results depend on the processing

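The scaling decided how many genes were called on each side. As deposited, 1034 autosomal genes were higher and 9083 lower in LF2 EpiLC, and 460 were higher in mESC. Quantile normalization gave 3476 higher and 4501 lower (43.6% of calls higher), and TPM rescaled over nuclear protein-coding genes gave 2738 and 4208 (39.4%). The fit of all 19 libraries gave 2438 and 2271, and a minimum change of 1 log2 gave 959 and 436. Leaving out 1 library gave 3553 to 4121 higher and 3355 to 3905 lower in EpiLC. In mESC the range was 386 to 2211 higher and 337 to 2090 lower. Chromosome 8 ranged from 0.19 to 0.23 in median log2 difference, its distal stretch from 0.39 to 0.42 and the chromosome 6 stretch from 0.85 to 0.97. With a filter of 5 TPM these medians were 0.27, 0.49 and 0.99. Except where the alternative has fewer genes or libraries, the cause was not tested.

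Same-numbered EpiLC replicates of the lines had deviations that correlated at 0.27, 0.05 and 0.08. Replicates 1 thus deviated together, and each correlated at -0.17 to -0.14 with replicates 2 and 3 of the other line. Replicates 2 and 3 correlated best across numbers (0.12 and 0.11). Whether replicates 1 shared a step was not tested. With the replicate block 4324 genes were higher and 4187 lower in EpiLC, and 341 and 322 in mESC. Of the 25 genes named for their size, only the call on Tpt1-ps3 was lost under any alternative, in 5 of them, with no filter (-3.93) and in the fit of all 19 libraries (-3.72) beside the libraries named above. No named gene changed sign under any alternative run on it, whereas list and stretch medians did so as deposited where stated above. TPM keeps no depth, so the counting error of weakly expressed genes cannot be given.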
